A study of Homo sapiens with 6 samples.

Results

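The 53 genes described here encode the eukaryotic translation initiation factors and their direct partners. They were chosen by name alone, as autosomal protein-coding genes whose symbol begins with EIF and a number from 1 to 6, and the rule uses no measured value. They were 53 of 19229 autosomal protein-coding genes on GRCh37 (hg19), the build of the H3K27Ac peak lists, and 53 of 18777 on GRCh38 (hg38), the build of the H3K4me3 lists. Another 3 genes of the family lie on a sex chromosome and were left out. OCI-AML3, an established acute myeloid leukemia cell line that carries mutant NPM1 (mtNPM1), received by transfection either the control sgRNA, sgNeg, or an mtNPM1-directed sgRNA, sgNpm1A. The labels give 3 days of culture for every sample, and the study itself gives a longer incubation. No further treatment separates the groups, and both guides were used in the same line. ChIP-seq was done for H3K27Ac, a mark of active promoters and enhancers, and for H3K4me3, a mark of active promoters, with 1 library for each guide and mark. There are therefore 4 peak lists, no replicate in any group and no test between the guides, and the 2 input libraries were not analysed here.

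Translation initiation loads the initiator tRNA and the small ribosomal subunit onto a capped mRNA. eIF2 carries the initiator tRNA and is recharged with GTP by eIF2B, and the eIF2 kinases slow this step under stress. eIF4E binds the cap, eIF4G is the scaffold and eIF4A the helicase of the cap-binding complex, 4E-BP proteins hold eIF4E back, and the large eIF3 complex joins the mRNA to the small subunit. eIF5 and eIF5B act at start codon recognition and subunit joining. These are housekeeping functions of every dividing cell, and many of the genes lie in CpG-rich promoters. Mutant NPM1 is a nucleolar protein displaced to the cytoplasm, and its knockout (mtNPM1 KO) was followed in the study at enhancers and promoters.

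A promoter was 1 kb on either side of an annotated transcript start, and a gene had a peak when a peak overlapped that window by at least 1 bp. Where several peaks did, the one with the highest fold enrichment was used. Its rank was given as a percentile within its own list, so that 100 is the highest peak of the list and 0 stands for no peak. Fold enrichment is the pileup of fragments over the expected pileup, averaged over the peak for H3K27Ac and read at the summit for H3K4me3, so it was not compared between marks.

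Promoter sequences are shown for 5 genes picked by hand, so their motifs do not give the share in the family. EIF4A3, EIF4H and EIF4G1 had some of the highest or widest H3K4me3 peaks of the family in sgNeg. EIF4E encodes the cap-binding protein itself, and EIF4E1B was the one gene of the family with an H3K4me3 peak in the sgNpm1A list. EIF4A2, the next widest after EIF4G1 for H3K4me3 in sgNeg, held no CACGTG and is not shown. EIF3B, EIF3G and EIF3H, also among the highest, had no reference sequence at the gene record start. Each sequence shown is the 250 bases before the start in RefSeq on GRCh38, read 5′ to 3′ along the gene's own strand. Capitals mark CACGTG (the E-box, recognised by MYC and related factors), GGGCGG or its complement CCGCCC (the GC box) and CCAAT. EIF4A3 lies at chr17:80147129-80147378 on the minus strand, EIF4H at chr7:74174106-74174355 on the plus strand, EIF4G1 at chr3:184314356-184314605 on the plus strand, EIF4E at chr4:98929134-98929383 on the minus strand and EIF4E1B at chr5:176630425-176630674 on the plus strand.
EIF4A3: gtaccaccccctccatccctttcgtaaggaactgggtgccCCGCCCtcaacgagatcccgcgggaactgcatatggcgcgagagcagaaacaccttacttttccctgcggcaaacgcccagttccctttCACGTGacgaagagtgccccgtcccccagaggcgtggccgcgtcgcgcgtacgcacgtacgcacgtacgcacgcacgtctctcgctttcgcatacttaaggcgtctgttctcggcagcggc
EIF4H: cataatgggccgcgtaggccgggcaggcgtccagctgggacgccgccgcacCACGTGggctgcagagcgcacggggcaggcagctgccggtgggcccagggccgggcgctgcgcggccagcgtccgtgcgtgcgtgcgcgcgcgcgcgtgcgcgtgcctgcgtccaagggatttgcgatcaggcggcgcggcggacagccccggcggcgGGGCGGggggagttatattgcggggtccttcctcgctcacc
EIF4G1: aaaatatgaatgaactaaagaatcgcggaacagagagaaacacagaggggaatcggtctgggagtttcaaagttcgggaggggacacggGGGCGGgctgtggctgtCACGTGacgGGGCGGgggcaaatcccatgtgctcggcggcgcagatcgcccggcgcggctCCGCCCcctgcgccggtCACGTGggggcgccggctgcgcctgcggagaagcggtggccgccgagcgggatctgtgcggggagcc
EIF4E: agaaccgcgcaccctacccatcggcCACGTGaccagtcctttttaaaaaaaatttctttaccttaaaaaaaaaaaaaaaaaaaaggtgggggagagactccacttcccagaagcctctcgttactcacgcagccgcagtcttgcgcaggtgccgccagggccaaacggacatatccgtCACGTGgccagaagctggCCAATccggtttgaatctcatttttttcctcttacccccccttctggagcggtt
EIF4E1B: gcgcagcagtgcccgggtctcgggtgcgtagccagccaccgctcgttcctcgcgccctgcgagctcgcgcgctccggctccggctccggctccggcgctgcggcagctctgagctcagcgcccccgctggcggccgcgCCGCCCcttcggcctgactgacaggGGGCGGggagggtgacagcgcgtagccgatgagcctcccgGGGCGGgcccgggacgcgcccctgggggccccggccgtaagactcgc

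EIF4G1 and EIF4E each held 2 E-boxes, EIF4A3 and EIF4H held 1 each, and EIF4E1B held none but 3 GC boxes. Over the family, 44 of the 53 genes matched a RefSeq promoter of 300 bases, 250 before and 50 after the start, as did 15099 autosomal coding genes in all. No motif searched contains another, and both strands were read. An E-box was in 12 of the 44 promoters (27.3%), against 8.71% of all promoters and 5.17% of the 58 ribosomal protein gene promoters that matched. The ETS-type word CCGGAAG was also in 12 (27.3%), against 14.3% of all. The GC box was in 32 (72.7%) against 58.7%, and CCAAT in 19 (43.2%) against 36.1%. TATAAA and the YY1-type word AAGATGGCG were each in 2 (4.55%), against 9.83% and 2.74% of all, and an NRF1-type word was in 0 of the 44, against 1.78% of all. The first transcribed bases were a C and 4 more pyrimidines in 9 (20.5%), against 4.58% of all promoters and 69.0% of the ribosomal protein genes, in which a pyrimidine run at the start is a known feature. The median ratio of observed to expected CpG was 0.911 against 0.765 over all promoters, and the median GC content was 64.7% against 62.7%. A match is a run of letters and no evidence that a factor was bound.

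The lists themselves differed in where their peaks lay, which bears on every value below. They held 327715 peaks in sgNeg H3K27Ac, 317059 in sgNpm1A H3K27Ac, 353628 in sgNeg H3K4me3 and 106641 in sgNpm1A H3K4me3, and read depth is not given in them. Over all genes, the sgNeg lists had a peak at 81.2% of promoters for H3K27Ac and 70.4% for H3K4me3, against 61.6% and 33.0% when the same windows were moved by 20 kb. In the sgNpm1A lists promoters and moved windows were near each other, at 59.7% and 57.5% for H3K27Ac and at 9.93% and 13.4% for H3K4me3. Of 6 myeloid marker genes (CD33, SPI1, MPO, CEBPA, LYZ and ANPEP), 6 had an H3K27Ac peak and 5 an H3K4me3 peak in sgNeg, the exception being LYZ, and in sgNpm1A 4 and 1 did. The sgNeg H3K4me3 peak of MPO was 131 bp wide and at percentile 34.4 only. ANPEP was at 88.8 in that list, and CD33, SPI1 and CEBPA were at 98.0 or above. Of 8 markers of B, T and erythroid cells, 7 had an H3K27Ac peak in sgNeg, with percentiles from 0 to 93.1 over the 8, and 1 (CD3E, 111 bp wide, percentile 72.7) an H3K4me3 peak. In sgNpm1A 6 and 1 of the 8 did, with PAX5 at percentile 98.1 for H3K27Ac against 66.8 in sgNeg and CD3D at 92.6 for H3K4me3 against 0. NPM1 had a peak of both marks in sgNeg, at percentiles 99.6 and 99.6, and none in sgNpm1A. A peak list is no check that the gene was edited. One doubt about the line bears on every H3K27Ac value. All sample labels give OCI-AML3, but the deposited H3K27Ac lists are named with the tag OCI2 and the H3K4me3 lists with OCI3, and no source used here explains the tag. The study also used OCI-AML2, a line with wild-type NPM1, and whether the H3K27Ac lists come from it was not tested, so counts that join the marks gene by gene hold only if the labels are right.

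In control cells the promoters of the family were nearly all marked. An H3K27Ac peak was present at 48 of the 53 (90.6%, 95% Wilson interval 79.7 to 95.9%), against 81.2% of all promoters. An H3K4me3 peak was present at 47 (88.7%, 77.4 to 94.7%), against 70.4% of all. Moved by 20 kb, the same windows held a peak at 70.8% and 27.4% of their positions. The family had a median of 9 annotated starts per gene on GRCh37 against 5 over all genes. With the start of the gene record alone, 47 (88.7%) had an H3K27Ac peak against 71.7% of all promoters, and the moved windows held one in 44.3% of positions. For H3K4me3 the count was then 46 (86.8%), against 66.7% of all. All 47 genes with an H3K4me3 peak also had an H3K27Ac peak, and 5 genes had neither. No share over all promoters was computed for these joint counts. Intervals cover counting error over genes only, and genes of a complex are not independent.

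**Figure D1:**
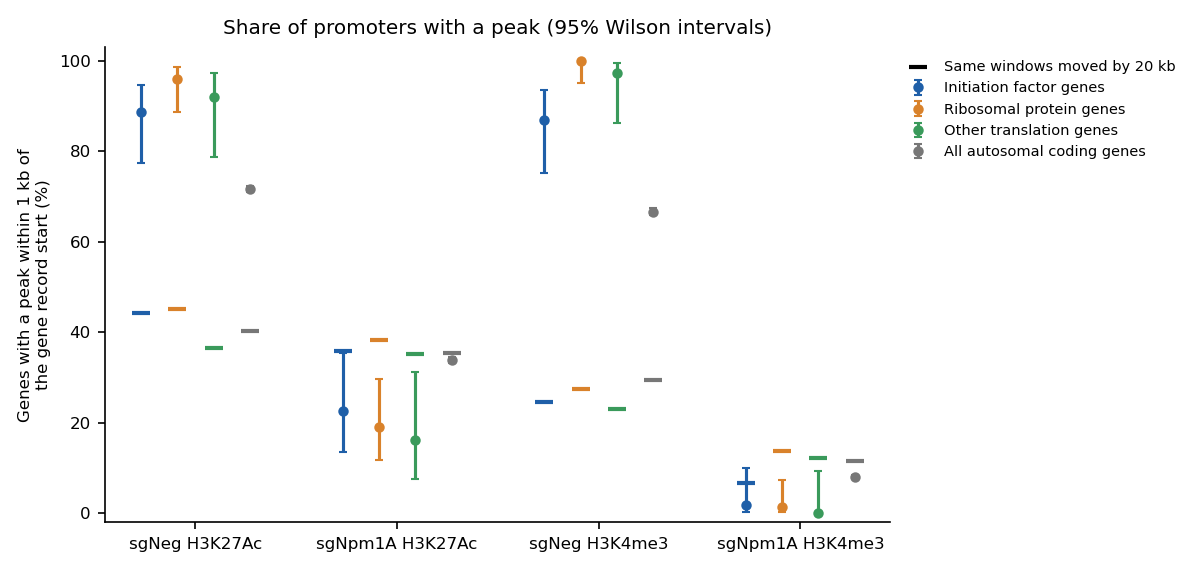
Share of genes (%) with a peak within 1 kb of the gene record start in each of the 4 lists, for the 53 initiation factor genes, 73 ribosomal protein genes, 37 other translation genes and all autosomal coding genes. Points carry 95% Wilson intervals, dashes give the same windows moved by 20 kb. In both sgNeg lists the points of the initiation factor genes (88.7% and 86.8%) lie far above their dashes, and in the sgNpm1A lists (22.6% and 1.89%) below them.

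The peaks also ranked high. The median percentile over the 53 genes was 98.8 for H3K27Ac and 99.1 for H3K4me3, against 93.3 and 88.8 over all promoters. For H3K27Ac, 45 genes were at percentile 90 or above (all promoters 54.1%) and 24 at 99 or above (all promoters 16.1%). For H3K4me3 the counts were 46 (all promoters 49%) and 27 (all promoters 16.7%). In both lists at once, 16 genes were at 99 or above, and no share over all promoters was computed for this count. The 37 other translation genes, which were listed separately and include poly(A)-binding proteins, elongation factors and mTOR pathway genes, had medians of 99.01 and 99.15, and 35 and 37 of them had a peak.

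The peaks were also wider at the median. The median H3K27Ac peak of the family was 2270 bp wide (95% interval of the median 2053 to 2767 bp, n = 48), against 1526 bp over all promoters with a peak and 3163.5 bp over 72 ribosomal protein genes. The median H3K4me3 peak was 1042 bp wide (808 to 1136 bp, n = 47), against 698 bp over all and 1434 bp over the ribosomal protein genes. H3K27Ac peaks were wider than 1 kb at 42 genes and narrower than 500 bp at 3, EIF2AK2, EIF3F and EIF4E1B. The shares of all promoters beyond these widths were not computed, and the lower quartile over all promoters with a peak was 646 bp.

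**Figure D2:**
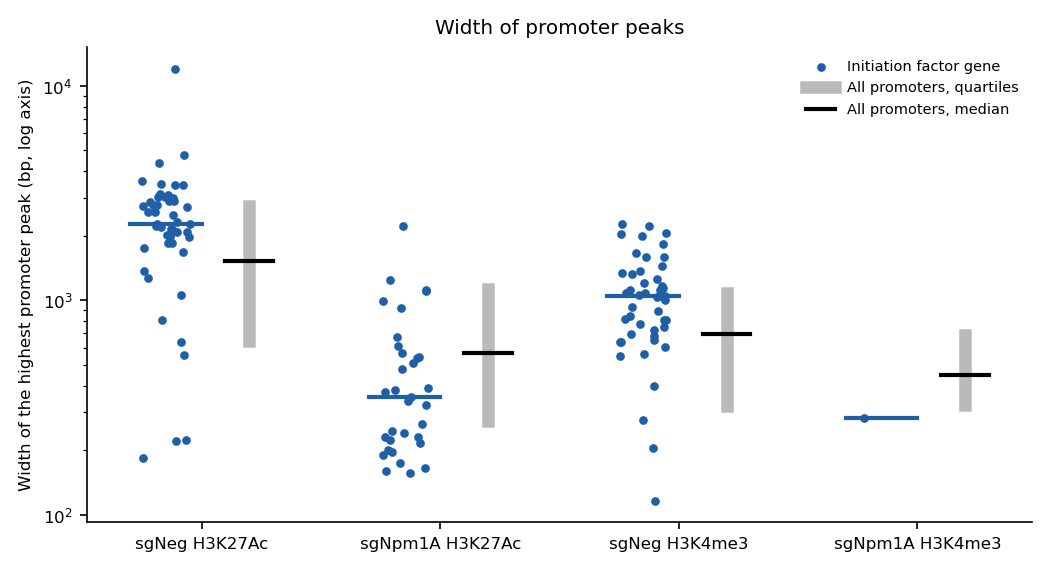
Width (bp, log axis) of the highest promoter peak, 1 blue point for each initiation factor gene with a peak and a blue line at their median, beside the median and quartiles of all promoters. The blue medians lie above those of all promoters in both sgNeg lists (2270 and 1042 bp against 1526 and 698 bp) and below in the sgNpm1A H3K27Ac list (353 against 567 bp).

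EIF5, which encodes the GTPase activator of eIF2, had the highest H3K27Ac peak of the family in sgNeg, with a fold enrichment of 9.95 over 3021 bp at chr14:103799013-103802033 on GRCh37, across its start. It had no H3K27Ac peak in sgNpm1A, and its H3K4me3 peak (9.36-fold) was in sgNeg alone. EIF5A, which encodes the hypusinated factor that helps stalled ribosomes, stood at 9.13-fold over 3470 bp in sgNeg H3K27Ac and at 8.32-fold in sgNeg H3K4me3, with no peak in either sgNpm1A list. EIF5B, the subunit-joining GTPase, and EIF6, an anti-association factor of the large subunit, shared the highest H3K4me3 fold of the eIF5 and eIF6 genes, 9.57. For EIF5B a sgNpm1A H3K27Ac peak was listed at percentile 3.21, near the bottom of its list. EIF5A2, a paralog of EIF5A with restricted expression in normal tissue, had a lower H3K27Ac peak (2.78-fold, percentile 51.0) beside an H3K4me3 peak at percentile 97.7. Of the 6 eIF5 and eIF6 genes, 5 had an H3K27Ac peak in sgNeg (all promoters 81.2%) and 1 in sgNpm1A (all promoters 59.7%).

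The eIF4 genes held 11 of their 13 members at percentile 99 or above for H3K27Ac in sgNeg (all promoters 16.1%). With the gene record start alone, EIF4ENIF1 among them was at percentile 87.8. EIF4G2 (9.11-fold) and EIF4G3 (8.63-fold), which encode scaffold proteins, were the highest and had no sgNpm1A peak of either mark. EIF4A1, the main helicase gene, had the widest H3K27Ac peak of the family, 12017 bp at chr17:7472943-7484959, which covers the whole gene and reaches past both ends. In sgNpm1A a peak of 324 bp at percentile 79.2 lay inside it. EIF4G1, the main scaffold gene, followed among the eIF4 genes with 4379 bp, and its H3K4me3 peak of 2273 bp was the widest of that mark. EIF4A2 (2217 bp) and, among the eIF3 genes, EIF3A (2060 bp) had the next widest H3K4me3 peaks. EIF4A3, which encodes a helicase of the exon junction complex, had an H3K4me3 peak of 16.02-fold in sgNeg and none in sgNpm1A, and for EIF4H, a cofactor of the helicase, the value was 12.3-fold. EIF4E had an H3K27Ac peak of 7.70-fold over 2581 bp in sgNeg and of 2.80-fold over 165 bp in sgNpm1A.

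EIF4E1B, a germ-line relative of EIF4E, had a peak in all 4 lists. Its highest H3K27Ac peak stood at 2.73-fold (percentile 42.2, 221 bp) in sgNeg and at 3.25-fold (percentile 80.8, 477 bp) in sgNpm1A. The peaks lay apart, at chr5:176056865-176057085 in sgNeg and chr5:176070644-176071120 in sgNpm1A on GRCh37, and neither held a start. With the gene record start alone, the values were 2.73-fold (percentile 42.2) in sgNeg and 3.11-fold (percentile 69.5) in sgNpm1A. Its H3K4me3 peak stood at 3.74-fold (percentile 72.7, 116 bp) in sgNeg and 3.56-fold (percentile 43.9, 281 bp) in sgNpm1A. Percentiles of the H3K4me3 lists rest on very different numbers of peaks. Among all 18777 promoters its H3K4me3 peak stood above 42.3% in sgNeg and above 93.3% in sgNpm1A. Promoters without a peak count as lower there, 5556 in sgNeg and 16912 in sgNpm1A, so these shares do not compare its rank between the guides. The divergent gene SNCB starts within 1 kb of EIF4E1B. EIF4E3, an atypical cap-binding protein, had no peak in sgNeg for either mark. In sgNpm1A H3K27Ac it had a peak of 240 bp at percentile 37.6, near a start other than that of the gene record.

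Among the 4E-BP genes, EIF4EBP2 had the highest peaks in sgNeg, at 7.04-fold for H3K27Ac and 11.9-fold for H3K4me3, and none in sgNpm1A. EIF4EBP1 was at 6.69-fold and 9.57-fold. EIF4EBP3 lay under a sgNeg H3K27Ac peak of 4741 bp, the second widest of the family, and was the one gene with H3K27Ac and no H3K4me3 peak there.

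The eIF3 genes had 12 of 14 members with a peak of each mark in sgNeg (all promoters 81.2% for H3K27Ac and 70.4% for H3K4me3). EIF3B, a core subunit, was highest in both, at 8.95-fold for H3K27Ac (3105 bp at chr7:2392794-2395898 on GRCh37, across its start) and 16.22-fold for H3K4me3, the highest H3K4me3 peak of the family. EIF3G and EIF3H followed for H3K4me3 at 13.1-fold each. EIF3C and EIF3CL had no peak in any of the 4 lists. They are near-identical copies of each other, as EIF5AL1 and EIF2S3B, which also had none, are of EIF5A and of a sex-linked gene. The mapping settings were not stated, and reads from such copies may have been discarded, so no peak at these 4 genes is uncertain. Without them, EIF4E3 alone of 49 genes lacked an H3K27Ac peak in sgNeg.

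The eIF2 and eIF2B genes were led for H3K27Ac by EIF2A (8.25-fold), a non-canonical tRNA-delivery factor, and by EIF2B4 (6.80-fold), a regulatory subunit of eIF2B. EIF2B3 was the lowest eIF2B gene at 3.37-fold over 636 bp. EIF1B was the highest eIF1 gene (6.50-fold) and EIF1AD the lowest (5.22-fold), a narrow range. For H3K4me3 the order turned, with EIF1AD highest at 9.36-fold and EIF1 lowest at 6.45-fold. Among the kinases that phosphorylate eIF2, EIF2AK1 (heme-regulated) was highest for H3K27Ac at 6.10-fold and EIF2AK3 (PERK) for H3K4me3 at 7.07-fold, while EIF2AK2 (PKR) was lowest for both, at 3.14-fold and 4.99-fold. None of the 4 kinases reached percentile 99 for H3K4me3 (all promoters 16.7%), and 1 did for H3K27Ac (all promoters 16.1%), too few genes to set apart from these shares.

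**Figure D3:**
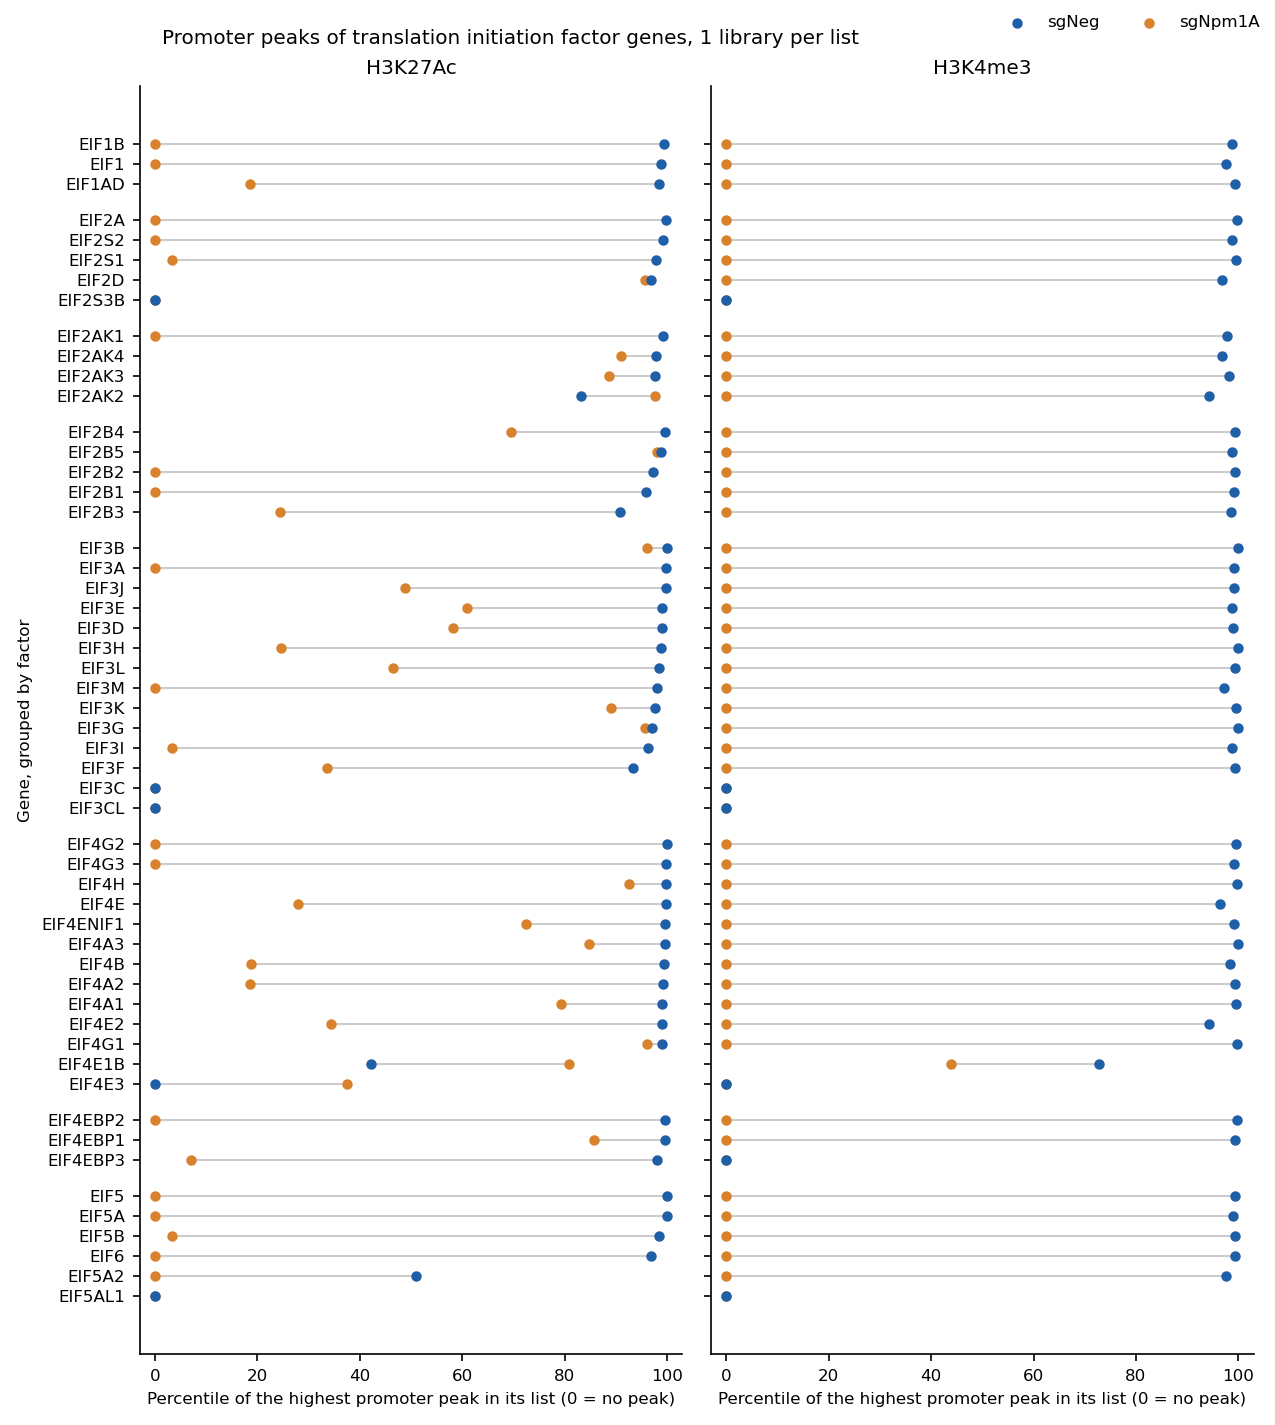
Percentile of the highest promoter peak within its own list (0 = no peak) for each of the 53 genes, grouped by factor, in sgNeg (blue) and sgNpm1A (orange). For H3K27Ac the orange points are spread from 0 to 98.0 and for H3K4me3 all but EIF4E1B are at 0, while most blue points lie above 90. Where both points of a gene fall on 0, blue covers orange.

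In cells with mtNPM1 KO the H3K4me3 list held a peak at 1 of the 53 promoters (1.89%, 95% Wilson interval 0.334 to 9.94%), against 9.93% of all promoters. The one was EIF4E1B. Moved by 20 kb, the windows of the family held a peak in 7.55% of positions. A peak in sgNeg alone was found at 46 genes (all promoters 62.2%), in both at 1 (all promoters 8.17%) and in sgNpm1A alone at 0 (all promoters 1.76%). The percentile was lower in sgNpm1A at 47 (all promoters 67.7%) and higher at 0 (all promoters 4.45%). None of the 53 reached percentile 90 (all promoters 1.19%) or 99 (all promoters 0.197%). The median change in percentile was -99.1 over the family and -80.0 over all promoters. One ribosomal protein gene of 73 and 1 other translation gene of 37, LARP1, had a peak in this list. With the gene record start alone the count was also 1 (all promoters 8.02%).

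The H3K27Ac list of sgNpm1A held a peak at 33 of the 53 (62.3%, 48.8 to 74.1%), against 59.7% of all promoters, and the moved windows of the family held one in 66.0% of positions. The share was thus near the background of this list. With the start of the gene record alone it was 12 (22.6%, 13.5 to 35.5%), against 33.8% of all promoters and 35.8% of the moved windows. Both guides had a peak at 32 genes (all promoters 54.6%), sgNeg alone at 16 (all promoters 26.6%), sgNpm1A alone at 1 (all promoters 5.04%) and neither at 4. Of the genes with a sgNeg peak, 66.7% in the family and 67.2% over all promoters also had one in sgNpm1A, so these shares were near each other. The percentile was lower in sgNpm1A at 46 genes (all promoters 67.1%) and higher at 3 (all promoters 19.2%), which were EIF2AK2, EIF4E1B and EIF4E3. The median change in percentile was -59.8 over the family, -18.5 over all promoters, -50.6 over the other translation genes and -97.8 over the ribosomal protein genes. Of the 3 genes with a higher percentile, EIF2AK2 went from 51.9 in sgNeg to 0 in sgNpm1A with the gene record start alone. EIF4E3 then had no peak in either list, and EIF4E1B was at 42.2 in sgNeg and 69.5 in sgNpm1A.

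Where both guides had an H3K27Ac peak, the highest peaks of the guides overlapped at 7 of the 32 genes and lay apart at 25 (all promoters 61.9%), and the peak was wider in sgNeg at 29 (all promoters 71%). Over these 32 the median width was 2270 bp with sgNeg and 362.5 bp with sgNpm1A, against 1532 and 595 bp over all promoters with both. The fold enrichment was lower in sgNpm1A at 30 of 32 (all promoters 67.5%), but fold values of separate lists are relative to each list's own background. In sgNpm1A the start of the gene record lay under a peak at 2 genes, EIF3H and EIF3I (all promoters 7.92%), against 41 in sgNeg (all promoters 50.2%). The highest peak had a q-value under 1e-05 at 0 genes in sgNpm1A H3K27Ac (all promoters 0.941%) and at 38 in sgNeg (all promoters 36.8%).

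At percentile 90 or above, sgNpm1A H3K27Ac held 8 genes (all promoters 11.5%), and 0 at 99 or above (all promoters 1.03%). They were EIF2AK2, EIF2AK4, EIF2B5, EIF2D, EIF3B, EIF3G, EIF4G1 and EIF4H. EIF2B5, the catalytic subunit of eIF2B, was the highest at 4.03-fold over 672 bp, and EIF2AK2 came next at 3.97-fold over 215 bp (percentile 97.7), overlapping its sgNeg peak of 224 bp (percentile 83.3). EIF4H had the widest, 2226 bp at chr7:73596594-73598819 on GRCh37, inside the gene and apart from its sgNeg peak of 1975 bp at chr7:73587770-73589744. EIF3G (1243 bp) and EIF4G1 (1101 bp) also had sgNpm1A peaks wider than 1 kb, at a start other than that of the gene record. The peaks of EIF2AK2 (215 bp), EIF2D (201 bp), EIF2AK4 (196 bp) and EIF3B (543 bp) held no start. With the gene record start alone, EIF2AK4 was at percentile 37.6 and EIF2D at 25.3 in sgNpm1A H3K27Ac. EIF2AK2, EIF2B5, EIF3B, EIF3G, EIF4G1 and EIF4H had no peak there.

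**Figure D4:**
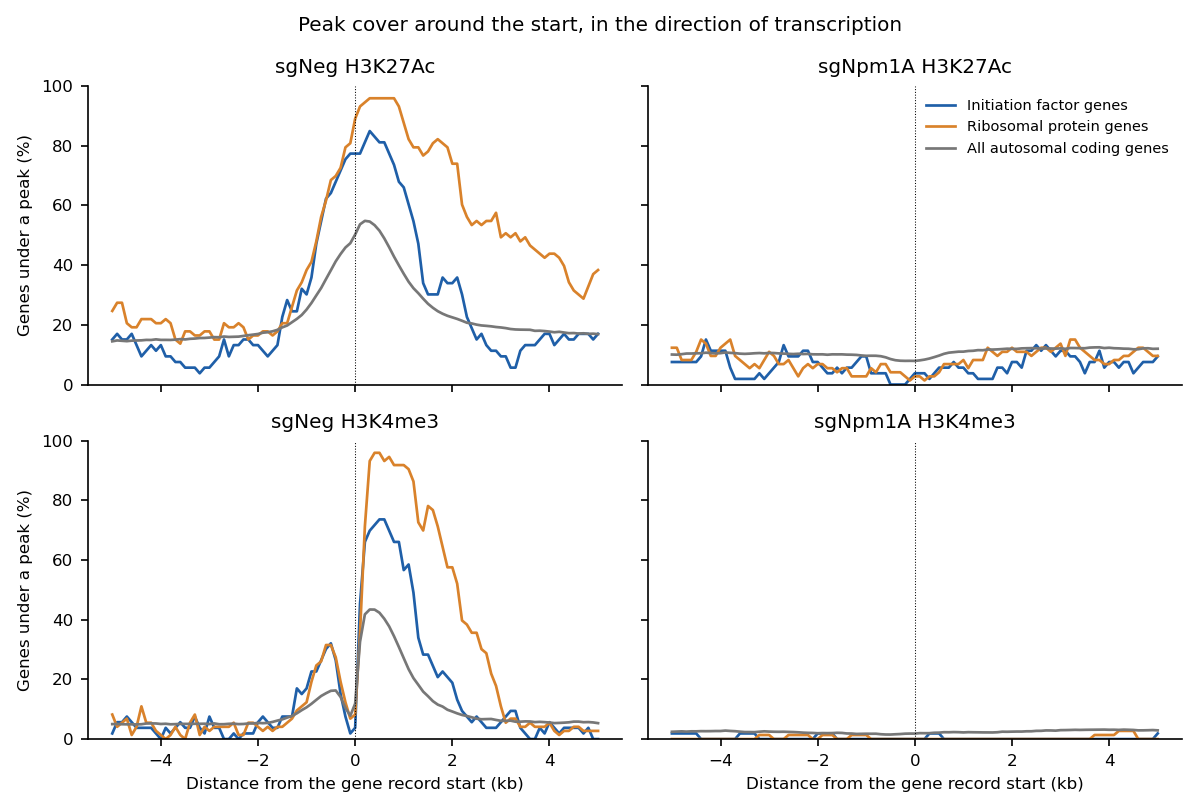
Share of genes (%) under a peak at each distance (kb) from the gene record start, in the direction of transcription, for the initiation factor genes (blue), ribosomal protein genes (orange) and all autosomal coding genes (grey). The blue line reaches 84.9% at 300 bp in sgNeg H3K27Ac and 73.6% at 500 bp in sgNeg H3K4me3, where it falls to 3.77% at the start itself, and it has no rise at the start in either sgNpm1A list.

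The peaks of control cells had a shape around the start. For H3K27Ac the share of the 53 genes under a peak was 77.4% at the start, 84.9% at 300 bp downstream and 64.2% at 500 bp upstream, against 50.2%, 54.6% and 38.3% of all promoters. For H3K4me3 it was 73.6% at 500 bp downstream, 3.77% at the start and 32.1% at 500 bp upstream. An H3K4me3 peak lay in the 1 kb downstream at 45 of the 53 genes (all promoters 60.2%) and in the 1 kb upstream at 25 (all promoters 35.2%). Over all promoters the H3K4me3 share was 43.4% at its highest, 300 bp downstream, and 11.9% at the start. The summit was downstream of the nearest start at 42 of 47 genes (89.4%, all promoters 77.2%), with a median distance of 425 bp over the 47. The highest peak began downstream of the start at 37 of 47, a count for which no share over all promoters was computed. That peak held the nearest start at 7 of 47 (14.9%, all promoters 20.0%). In sgNpm1A H3K27Ac, 3.77% of the genes were under a peak at the start, against a mean of 8.23% at 4 to 5 kb on either side, and over all promoters the shares were 7.92% and 11.2%.

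The cover upstream of the start was also read by neighbouring gene. On GRCh38, 10 of the 53 genes had a coding gene that starts within 1 kb upstream on the other strand, against 2235 of the 18777 genes in all. All 10 had an H3K4me3 peak in the 1 kb upstream in sgNeg, against 15 of the 43 others (34.9%), and over all promoters the shares were 81.0% and 29.0%. More bases were under peaks upstream than downstream in 4 of the 10 and in 0 of the 43, against 37.6% and 10.6% of all promoters. At EIF2A, EIF2B4 and EIF3H the highest peak had its summit at -984, -814 and -493 bp from the start, on the side of SERP1, SNX17 and UTP23, so their H3K4me3 ranks rest on peaks that cannot be told apart from those of these neighbours. For H3K27Ac, on GRCh37, 12 genes had such a neighbour, against 2568 of the 19229 genes in all. An upstream peak was present at 12 of 12 against 32 of 41 (78.0%), with 89.3% and 55.9% over all promoters. Upstream cover was the larger in 6 of the 12 and in 2 of the 41, against 35.2% and 16.3% of all promoters. At EIF2A and EIF2B4 the H3K27Ac peak covered the whole 1 kb on both sides, so its rank cannot be told apart from that of the neighbour either. EIF3E had 807 bp under a peak upstream, on the side of EMC2, and 0 bp downstream.

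**Figure D5:**
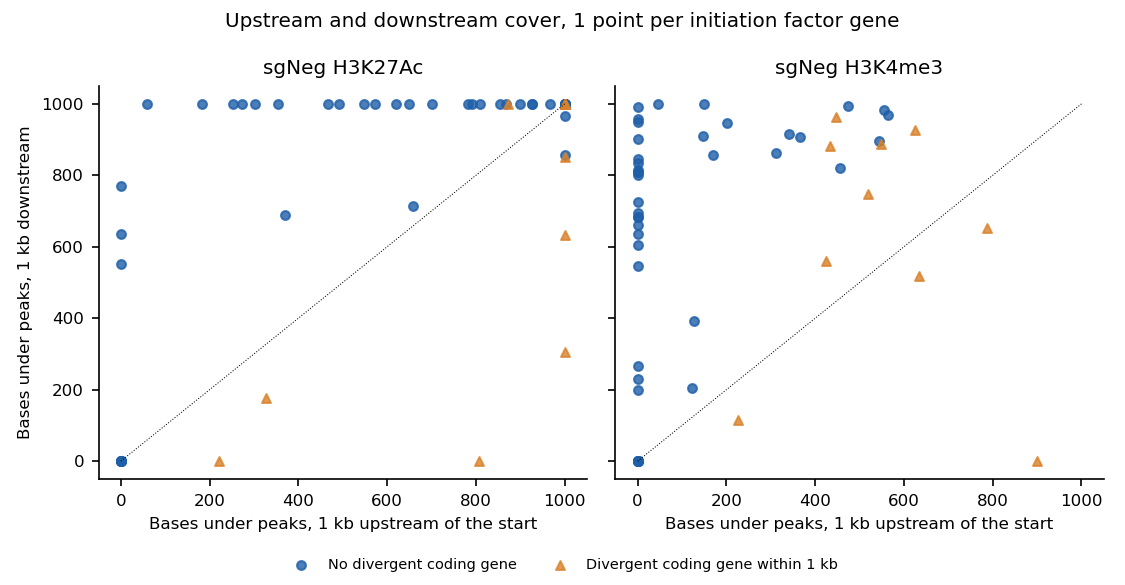
Bases under sgNeg peaks in the 1 kb upstream (x axis) and downstream (y axis) of the gene record start, 1 point for each initiation factor gene, with H3K27Ac on the left and H3K4me3 on the right. Triangles are genes with a divergent coding gene within 1 kb and the dotted line marks equal cover. For H3K4me3 the only 4 points below the line are triangles, and many circles lie at 0 upstream.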

How the data were processed

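ChIP-seq of H3K27Ac and H3K4me3 was measured in OCI-AML3 cells with sgNeg or sgNpm1A, 1 library each, and groups were taken from the sample titles. Per the submitters' processing notes, the authors used bcl2fastq 2.17, Trimmomatic 0.33, Bowtie 1.1.2, MACS2 2.1.0 and deepTools, with hg38 as the build. Settings, peak threshold and use of input were not given in the sources used here. Peaks were called per library. The H3K27Ac coordinates pass the end of chromosome 1 in hg38 (last end 249218478), so these lists were read as GRCh37, and the H3K4me3 lists as GRCh38 (last end on chromosome 17, 83201880). No coordinates were converted.

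The deposited fold enrichment is a ratio. The deposited −log10 p-values served only to filter peaks in the alternatives. The −log10 q-values did so too, and also gave the counts of highest H3K27Ac peaks with a q-value under 1e-05. The deposited score was not used, and the deposited summit offset, in bp, gave the H3K4me3 summits. Starts came from GENCODE version 44 lifted to GRCh37 (141551 starts) and from RefSeq on GRCh38 (26783 starts). For 9 members RefSeq gave the gene record start only, and 375 genes without a strand were left out. Rows of a list that overlap were to be merged, and 0 did. Python 3.11.15, pandas 2.3.3, numpy 2.4.6 and scipy 1.17.1 were used, and the scripts were tested on simulated data. With 1 library per group there is no test and no SD between guides, and read depth is unknown.

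The members, comparison lists and motifs were chosen with earlier results of these data known. Named were, by role and mark, the members with the highest and lowest sgNeg percentile, the 5 highest by fold and the 3 widest in each sgNeg list, members without a sgNeg peak, and those with a sgNpm1A H3K4me3 peak, or with a sgNpm1A H3K27Ac percentile of at least 90 or above that of sgNeg. Other members named were chosen after their values were seen. Alternatives were q-value limits of 0.01 and 1e-05, the 20000 peaks of lowest p-value, windows of 500 bp and 2 kb, an overlap of 150 bp, the gene record start alone and the family without near-identical copies.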

Additional observations from a re-analysis of the deposited data

How the results depend on the processing

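Counts were held to 1.5 times the reported count and medians to the 95% interval of the reported median. Both sgNeg counts, their widths and the H3K4me3 change in percentile stayed within these under all 8 alternatives. The sgNeg H3K27Ac count ranged from 38 to 48 and its width from 2265 to 2643 bp, and the sgNeg H3K4me3 count from 46 to 47 and its width from 1039.5 to 1049 bp. The sgNpm1A H3K27Ac values went past them. From 33 genes, the count went to 16 with a q-value under 0.01, to 0 under 1e-05, to 6 with the 20000 peaks of lowest p-value and to 12 with the gene record start alone. The median percentile change went from -59.8 to -96.8, -98.8, -98.5 and -97.9 under the same settings in that order, and none changed direction. That sign was set by construction, because no peak counts as 0 and the sgNeg median percentile was 98.8. The same holds for the H3K4me3 change, so neither adds support. The median width of these peaks went from 353 to 607.5 bp with the 20000 peaks. For sgNpm1A H3K4me3 the count of 1 went to 0 with a q-value under 1e-05, to 0 with the 20000 peaks and to 2 with a window of 2 kb, where the median width was 348.5 bp against 281 bp. Widths could not be given where no gene was left. Fewer peaks, fewer starts or a larger window make these alternatives by construction. No paired analysis was possible because each group has 1 library and no test was made. Leaving out a replicate was not possible for the same reason. With 1 library per group, the guide, the library, its depth and its share of background peaks cannot be told apart, and no list can show a difference between guides beyond replicate error.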
